A study of Mus musculus with 6 samples.

Results

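The BCL2 family decides whether a cell keeps its mitochondria intact or dies by apoptosis, and 10 of its genes were followed here through chromatin libraries of a pair of kidney cell lines. The members were taken by gene symbol: the survival genes Bcl2, Bcl2l1, Bcl2l2 and Mcl1, the effector genes Bax and Bak1, and the BH3-only genes Bcl2l11, Bbc3, Bid and Pmaip1. All 10 were found, each as 1 row, among 21937 genes measured in every library. The family was chosen by read shares of H3K4, H3K27 and input in both lines, the H3K4 difference at Bcl2l1 above all, so counts of members are a description and nothing is read from them.

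Survival proteins sit in the outer mitochondrial membrane and hold the effectors in check. When BH3-only proteins occupy the survival proteins or engage the effectors directly, BAX and BAK assemble pores, cytochrome c escapes and caspases are activated. In the developing kidney, BCL2 and its relatives keep the metanephric mesenchyme and its early nephrons alive. Mice without Bcl2 develop small, cystic kidneys, and loss of Bcl2l11 in such mice prevents this.

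The samples are ChIP-seq libraries of mK3 and mK4, immortalized mouse lines from the metanephros at E11.5, both of strain CD1 and with no treatment named. In general descriptions of these lines, mK3 resembles mesenchyme before induction and mK4 mesenchyme after it. From each line came 1 ChIP library labelled H3K4, 1 ChIP library labelled H3K27 and 1 of input chromatin, which is sequenced without pull-down and shows how much DNA each gene contributes. Methylation of H3K4 is typical of active promoters, and trimethylation of H3K27 of genes silenced by Polycomb, but the labels give no degree of methylation. With 1 library per group there is no replicate check and no p-value. Every interval below is a 95% interval for counting error only.

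Reads were counted over exons, with library totals between 311409 (mK3 input) and 714011 (mK4 H3K4) and a median of 10 to 23 reads per gene row. As general background, the catalogue number that the labels give for the H3K4 antibody, ab8898, is one under which an antibody against trimethylated H3K9 is sold, so the name H3K4 below is the labels' own. In the H3K4 libraries, 14 of 81 ribosomal protein genes in mK3 and 15 in mK4 had at least 2-fold their input, where 4.94% and 3.69% of all genes did. The corresponding counts were 16 and 8 of 332 Zfp genes, a family that commonly carries H3K9 trimethylation. Exon reads do not measure expression, so the lineage of the lines could be looked at only through the marks. Of 6 genes of the induced nephron, Wnt4, Lhx1 and Fgf8 were at least 2-fold over input for H3K27 in mK3 and none in mK4, and none was for H3K4 in either line. No endothelial or blood marker passed that threshold for H3K4 in mK3, and in mK4 Tek did, which also passed for H3K27. Of 3 stroma markers, Foxd1 passed for H3K4 in mK4 and none in mK3. The median log2 H3K4 value over input of the 3 was 0.945 in mK3 and 0.758 in mK4, beside 0 for all genes.

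The 3 survival genes with the clearest differences between the lines are shown with their starts. RefSeq's promoter table holds 14 starts for 9 of the members, and the 250 bases upstream of a start are printed here in the direction of the gene, with every CG dinucleotide, the site of DNA methylation and the mark of CpG islands, in capitals. For Bcl2l1 the most upstream of its 3 listed starts was taken. Coordinates are of GRCm38.p6, whereas the reads were placed on mm9.
Bcl2l1, chr2:152831729-152831978, minus strand: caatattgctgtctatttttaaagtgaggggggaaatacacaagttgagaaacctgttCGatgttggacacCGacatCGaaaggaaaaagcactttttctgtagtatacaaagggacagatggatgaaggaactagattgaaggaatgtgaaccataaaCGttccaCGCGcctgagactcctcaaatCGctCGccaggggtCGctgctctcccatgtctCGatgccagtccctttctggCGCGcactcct
Mcl1, chr3:95658471-95658720, plus strand: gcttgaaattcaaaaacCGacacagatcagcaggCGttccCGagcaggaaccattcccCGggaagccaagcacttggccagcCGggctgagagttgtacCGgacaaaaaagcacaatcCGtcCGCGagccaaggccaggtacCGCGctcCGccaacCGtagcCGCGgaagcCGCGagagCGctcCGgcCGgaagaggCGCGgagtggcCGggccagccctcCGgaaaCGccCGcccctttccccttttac
Bcl2l2, chr14:54883175-54883424, plus strand: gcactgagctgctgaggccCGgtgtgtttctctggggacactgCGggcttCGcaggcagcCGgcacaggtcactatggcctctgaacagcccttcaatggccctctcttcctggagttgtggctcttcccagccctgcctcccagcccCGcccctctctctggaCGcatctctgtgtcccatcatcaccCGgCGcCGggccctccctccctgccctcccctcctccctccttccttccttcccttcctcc

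The Mcl1 window held 26 CG dinucleotides, the Bcl2l1 window 12 and the Bcl2l2 window 9. Over 32851 promoter windows of the same length the median was 6, with the middle of the distribution between 2 and 16, and 92.1% held at least 1. Mcl1 had more than 90.4% of these windows, Bcl2l1 more than 66.5% and Bcl2l2 more than 59.7%. The 14 member starts had a median of 20.5, and the highest was 37 at one of 3 Bbc3 starts. Bcl2, with 36, and Bcl2l11, with up to 30, were also above Mcl1. Reads over exons do not cover these upstream bases, and no methylation of DNA was measured.

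Among the survival genes, Bcl2l1 and Mcl1 had more H3K4 reads in mK4 and Bcl2l2 had fewer, whereas Bcl2 differed little. Bcl2l1 encodes BCL-XL, the survival protein of many epithelial and blood cells. It lies on chromosome 2, has 2374 exon bases and drew 35 reads from the mK3 H3K4 library against 163 from that of mK4, a share 3.88-fold higher in mK4 (2.68 to 5.77). Only 8 and 27 input reads fell on it, but these differed in the same direction, by 2.72-fold (1.20 to 6.92). Its H3K27 reads were 20 and 34, a ratio of 2.10 (1.17 to 3.84). All 3 kinds of library thus put Bcl2l1 higher in mK4. The H3K4 ratio was the largest of the 3, but their intervals overlapped.

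Mcl1 encodes a short-lived survival protein that many cells need continuously. On chromosome 3, with 3491 exon bases, it drew 143 reads from the mK3 H3K4 library against 449 from that of mK4, 2.62-fold higher in mK4 (2.16 to 3.18). Its input reads were 33 and 122, 2.98-fold higher (2.01 to 4.52), and its H3K27 reads 41 and 79, 2.37-fold higher (1.61 to 3.55). Here the input ratio was the largest of the 3, and their intervals overlapped.

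Bcl2l2 encodes BCL-W and lies on chromosome 14. Its H3K4 reads numbered 60 and 28, 2.57-fold lower in mK4 (1.62 to 4.18). Its H3K27 reads (43 and 21, ratio 0.602, 0.339 to 1.04) and input reads (29 and 23, ratio 0.639, 0.353 to 1.14) were also lower, with intervals that included 1. Bcl2, the founding survival gene of the family on chromosome 1, has 7208 exon bases and had 98 and 156 H3K4 reads. That ratio of 1.33 (1.02 to 1.73) stood beside an input ratio of 1.35 (0.935 to 1.96) from 49 and 82 reads, and an H3K27 ratio of 1.14 (0.794 to 1.64) from 67 and 62.

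**Figure D1:**
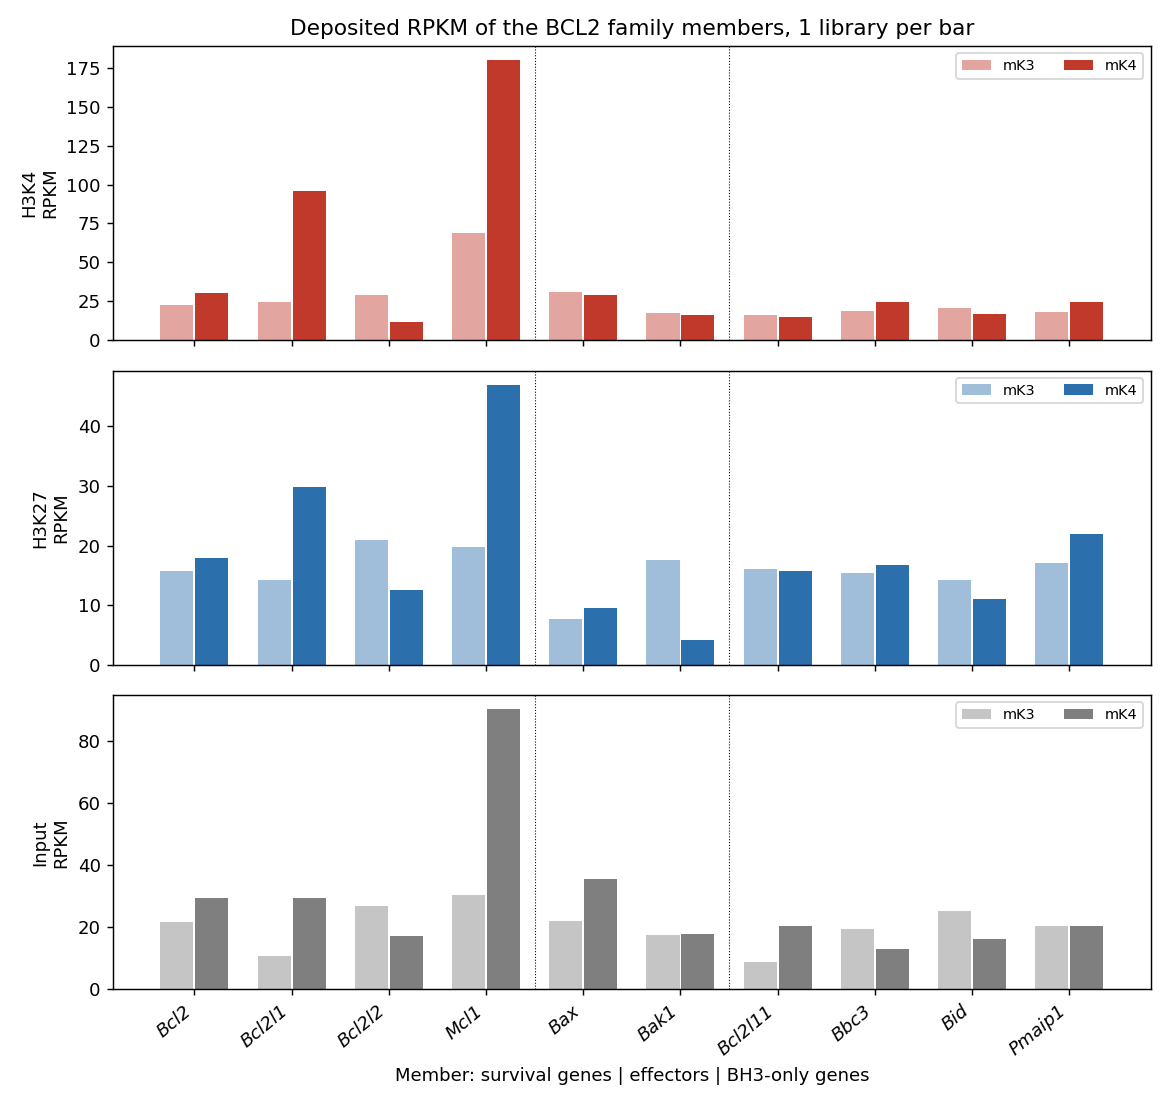
Deposited RPKM (reads divided by exon length and by library total) of each member in mK3 (pale bars) and mK4 (full bars) for H3K4, H3K27 and input, 1 library per bar. Mcl1 had the highest H3K4 level in both lines (68.8 and 180), and it was also highest in the input of both (30.4 and 90.4).

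The effectors had H3K4 read shares that differed little between the lines, before input or neighbours are taken into account. Bax, whose product moves from the cytosol to mitochondria on activation, has 875 exon bases, the fewest of the members, and had 16 and 18 H3K4 reads (ratio 0.938, 0.451 to 1.97). Its input reads were 6 and 12, and its H3K27 reads were 4 in each line, so that differences below several-fold were not detectable at this depth. Bak1, whose product resides on mitochondria, had 21 and 23 H3K4 reads (ratio 0.913, 0.483 to 1.73) and 11 and 14 input reads. Its H3K27 reads numbered 21 in mK3 but 4 in mK4, 4.26-fold lower in mK4 (1.44 to 17.1). Bak1 was the member with the largest H3K27 difference on the log2 scale, and it rests on the few reads just given.

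The BH3-only genes had H3K4 ratios between 0.834 (Bid) and 1.33 (Bbc3), and all 4 intervals included 1. Bcl2l11 encodes BIM, which binds every main survival protein. It had 49 and 53 H3K4 reads (ratio 0.902, 0.600 to 1.36) and 48 and 38 H3K27 reads (ratio 0.976, 0.620 to 1.52), but 14 and 40 input reads, 2.30-fold higher in mK4 (1.23 to 4.58). Its ChIP reads were level between the lines while its input was not. Bbc3 (PUMA) and Pmaip1 (NOXA), both p53 targets, had 22 and 35, and 29 and 46 H3K4 reads. Bid, which caspase-8 cleaves to link death receptors to mitochondria, had 23 in each line. Their inputs had ratios of 0.671 (0.260 to 1.69), 0.995 (0.500 to 2.01) and 0.644 (0.275 to 1.47), and their H3K27 ratios lay between 0.770 and 1.28, each interval including 1.

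**Figure D2:**
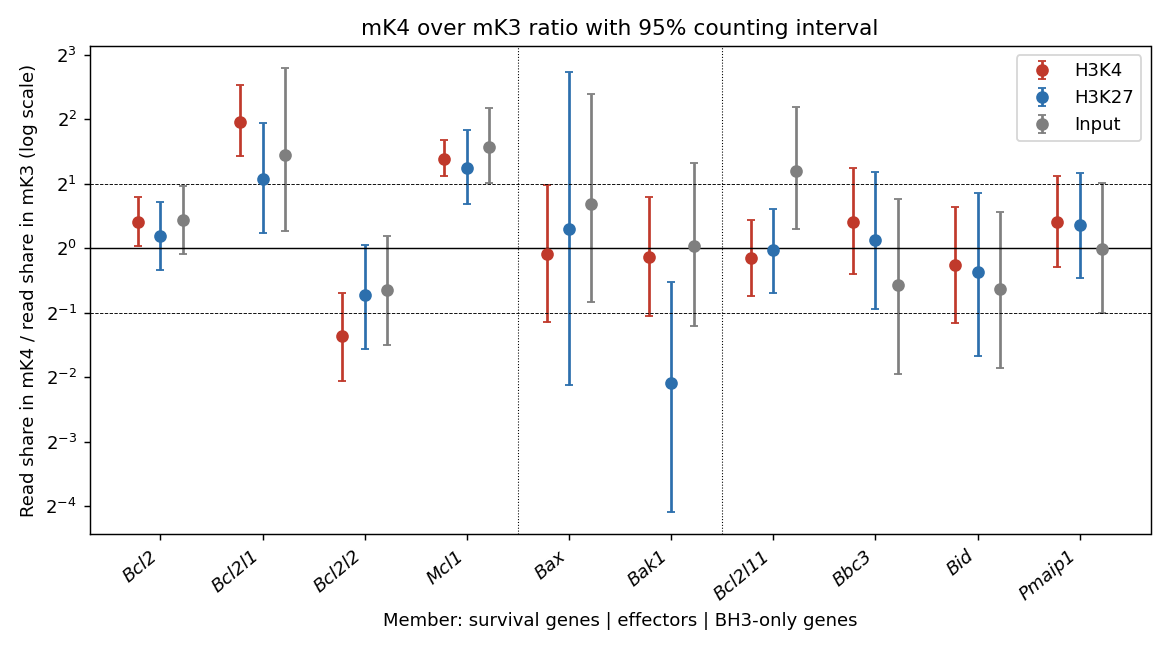
Ratio of read shares, mK4 over mK3, for each member in H3K4, H3K27 and input on a log scale, with bars for the 95% counting interval and dashed lines at 2-fold. Bcl2l1 and Mcl1 lie above 2-fold in all 3 kinds of library, and Bcl2l2 lies below 1 in all 3.

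Sums over the survival and death-promoting members are given as a description only, since the family was chosen on these read shares. The 4 survival genes had 336 H3K4 reads in mK3 against 796 in mK4, 1.98-fold higher in mK4 (1.74 to 2.25), and the 6 death-promoting genes had 160 and 198, a ratio of 1.03 (0.833 to 1.28). In the input the ratios were 1.72 (1.38 to 2.16) and 1.17 (0.864 to 1.59), and in H3K27 they were 1.41 (1.14 to 1.74) and 0.920 (0.703 to 1.20). Set against the input of the same genes, the H3K4 sum of the survival genes was 1.15-fold higher in mK4 (0.884 to 1.49) and that of the death-promoting genes had a ratio of 0.882 (0.604 to 1.28). The survival sum was carried by 2 genes. Without Bcl2l1 its H3K4 ratio was 1.75 (1.53 to 2.02), and without Bcl2l1 and Mcl1 it was 0.971 (0.781 to 1.21), a split chosen after the values were seen. The medians of the log2 H3K4 ratios, formed with a pseudocount of 5, were 0.87 for the survival genes, -0.08 for the death-promoting genes and -0.02 for all genes. The 2 effectors together had 25 H3K27 reads in mK3 and 8 in mK4 (ratio 0.394, 0.154 to 0.902). The fall in reads was all at Bak1, as Bax had 4 reads in each line.

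By a threshold of 2-fold on that log2 scale, Bcl2l1 and Mcl1 were higher in mK4 for H3K4 (2 of 10 members, beside 4.51% of all genes) and Bcl2l2 was lower (1 of 10, beside 2.99%). For H3K27, Mcl1 was higher (1 of 10, beside 3.73%) and Bak1 lower (1 of 10, beside 3.54%). In the inputs Bcl2l1, Mcl1 and Bcl2l11 were higher (3 of 10, beside 7.26%) and no member was lower (0 of 10, beside 6.2%). Each of the members with higher H3K4 was thus also among those with higher input. When each gene's own input ratio was subtracted, no member remained 2-fold higher in H3K4 (7.54% of all genes were), and Bcl2l11 was 2-fold lower in mK4 (7.36% of all genes were). For H3K27 in that form, 0 of 10 were higher (beside 7.35%), and Bak1 and Bcl2l11 were lower (2 of 10, beside 9.23%).

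Within each line, Bcl2l1 and Mcl1 were the members whose H3K4 lay above input beyond counting error. Bcl2l1 had H3K4 2.29-fold over input in mK3 (1.04 to 5.71) and 3.27-fold in mK4 (2.17 to 5.11), on the log2 scale with pseudocount above 94.3% and 99.6% of all genes. Mcl1 had 2.27-fold (1.54 to 3.42) and 1.99-fold (1.63 to 2.46), above 96.5% and 95.9% of all genes. The mK4 to mK3 ratio of these enrichments was 1.43 at Bcl2l1 (0.516 to 3.58) and 0.879 at Mcl1 (0.554 to 1.37). H3K4 lay above input at both genes in both lines, and the difference of this enrichment between the lines was not detectable at this depth. At the 2-fold threshold Mcl1 passed in mK3 only and Bcl2l1 in mK4 only (1 of 10 in each line, beside 4.94% and 3.69% of all genes), with log2 values of 0.97 for Mcl1 in mK4 and 0.95 for Bcl2l1 in mK3.

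Bcl2 had H3K4 at the level of its input in both lines (1.05, 0.735 to 1.51, and 1.03, 0.784 to 1.36). Bcl2l2 went from 1.08 (0.684 to 1.75) in mK3 to 0.659 (0.366 to 1.20) in mK4. Among the death-promoting genes the values over input ran from 0.802 (Bid) to 1.83 (Bcl2l11) in mK3 and from 0.718 (Bcl2l11) to 1.90 (Bbc3) in mK4, and every interval included 1. Bcl2l11 was thus the highest of these 6 genes in mK3 and the lowest in mK4.

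No member had H3K27 above input beyond its interval in either line. At the 2-fold threshold 0 of 10 members passed in mK3, beside 10.3% of all genes, and 0 of 10 in mK4, beside 9.06%. Mcl1 had less H3K27 than input in mK4 (0.520, 0.387 to 0.696), as did Bcl2 (0.608, 0.430 to 0.855), Bax (0.268, 0.0630 to 0.884) and Bak1 (0.230, 0.0550 to 0.731). The members' median log2 value against input was -0.30 (mK3) and -0.40 (mK4), where all genes had a median of 0. The highest single value was 1.80 at Bcl2l11 in mK3, with an interval from 0.976 to 3.54.

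The balance of H3K4 to H3K27 reads within a library pair does not involve the input. At Mcl1 it was 3.47 in mK3 (2.44 to 5.05) and 3.83 in mK4 (3.01 to 4.93), and at Bcl2l1 1.74 (0.979 to 3.19) and 3.23 (2.22 to 4.82). Bax had 3.99 (1.29 to 16.4) and 3.03 (0.999 to 12.3), and Bak1 0.996 (0.518 to 1.92) and 3.88 (1.32 to 15.4). Bcl2l11 stayed near even at 1.02 (0.669 to 1.55) and 0.940 (0.608 to 1.47), and so did Pmaip1 at 1.07 (0.611 to 1.88) and 1.11 (0.678 to 1.84). Bcl2 had 1.46 (1.06 to 2.02) and 1.70 (1.26 to 2.31), above 1 in both lines as at Mcl1. Bcl2l2 had 1.39 (0.924 to 2.11) and 0.899 (0.492 to 1.66). Bbc3 had 1.22 (0.623 to 2.41) and 1.47 (0.795 to 2.85), and Bid 1.43 (0.724 to 2.90) and 1.55 (0.710 to 3.65).

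**Figure D3:**
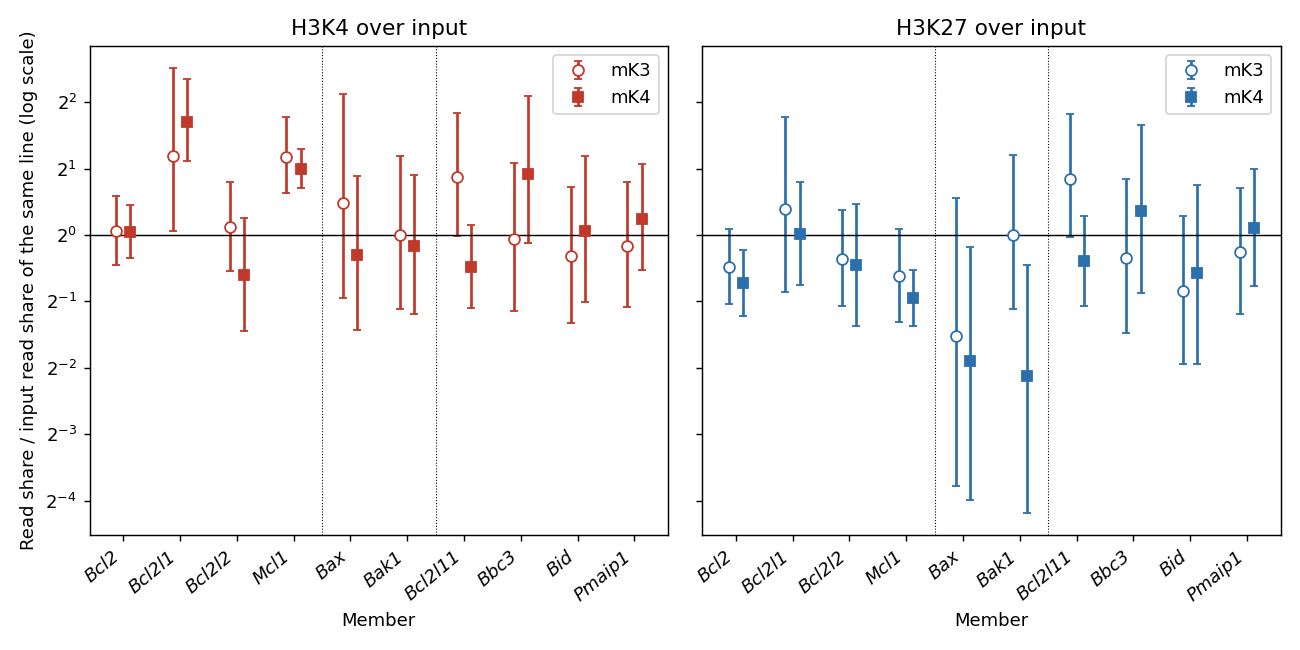
H3K4 (left) and H3K27 (right) read share over the input read share of the same line for each member, mK3 as open circles and mK4 as filled squares, on a log scale with 95% counting intervals. For H3K4 the intervals of Bcl2l1 and Mcl1 lie above 1 in both lines, and for H3K27 no interval lies above 1.

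The lines differ in input over whole stretches of chromosomes, and several members lie in such stretches. Over all genes of a chromosome, the mK4 to mK3 ratio of input was 1.84 on chromosome 3, 1.54 on chromosome 7 and 0.644 on chromosome 14. These chromosomes carry Mcl1, Bax with Bbc3, and Bcl2l2. The 20 measured genes around Mcl1 (10 on each side, next to it Ensa and Adamtsl4) had ratios of 2.06 in the input (1.78 to 2.39), 2.38 in H3K4 (2.13 to 2.66) and 2.63 in H3K27, and 4 of them exceeded Mcl1 in the H3K4 log2 ratio. Around Bcl2l2, between Ppp1r3e and Pabpn1, the ratios were 0.683 in the input, 0.645 in H3K4 and 0.607 in H3K27. On the log2 scale with pseudocount all 20 neighbours of Bcl2l2 lay above it in H3K4, and by share ratio 17 of the 20 did. The differences of Mcl1 and Bcl2l2 between the lines thus had the direction of their neighbourhoods in all 3 kinds of library. With neighbour input subtracted, their H3K4 log2 ratios were 0.31 and -0.63, down from 1.35 and up from -1.17. Bax and Bbc3, on chromosome 7, did not follow their neighbourhoods throughout. The H3K4 ratio of Bax was 0.938 (0.451 to 1.97) beside 1.73 for its 20 neighbours. On the log2 scale 19 of them lay above it. For Bbc3 the input ratio was 0.671 (0.260 to 1.69) beside 1.39, and all 20 neighbours lay above it. Both intervals included the neighbours' value. In the other kinds of library both members lay above 1, as their neighbours did.

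The family was chosen by the H3K4 difference at Bcl2l1 above all, so its standing among neighbours is a description only. Bcl2l1 had a larger H3K4 difference than its surroundings as a whole. The 20 genes around it, with Cox4i2 and Tpx2 next to it, had an input ratio of 1.20 (0.997 to 1.45) and an H3K4 ratio of 1.26 (1.12 to 1.42), and on the log2 scale with pseudocount none of them reached its H3K4 ratio. By share ratio 2 of the 20 exceeded it in H3K4, among them Pdrg1 with 7 and 37 reads. In the input, 1 of the 20 exceeded it on the log2 scale and 4 did by share ratio. With neighbour input subtracted, Bcl2l1 kept an H3K4 log2 ratio of 1.53 and was the 1 member of 10 at least 2-fold higher, beside 3.01% of all genes with neighbours. With its own input subtracted the value was 0.63, and by read shares against its own input the ratio was 1.43 (0.516 to 3.58). The gap between the log2 values comes from its 8 and 27 input reads, which differ more than the reads of its neighbours do. A similar gap was seen at Bcl2l11, whose neighbours had an input ratio of 0.914 (0.792 to 1.06) against its own 2.30, and whose H3K4 log2 ratio was -0.0034 with neighbour input subtracted and -1.18 with its own. Bak1 kept its H3K27 difference either way, at -1.14 with neighbour input (1 of 10 members lower, beside 3.67%) and -1.35 with its own.

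**Figure D4:**
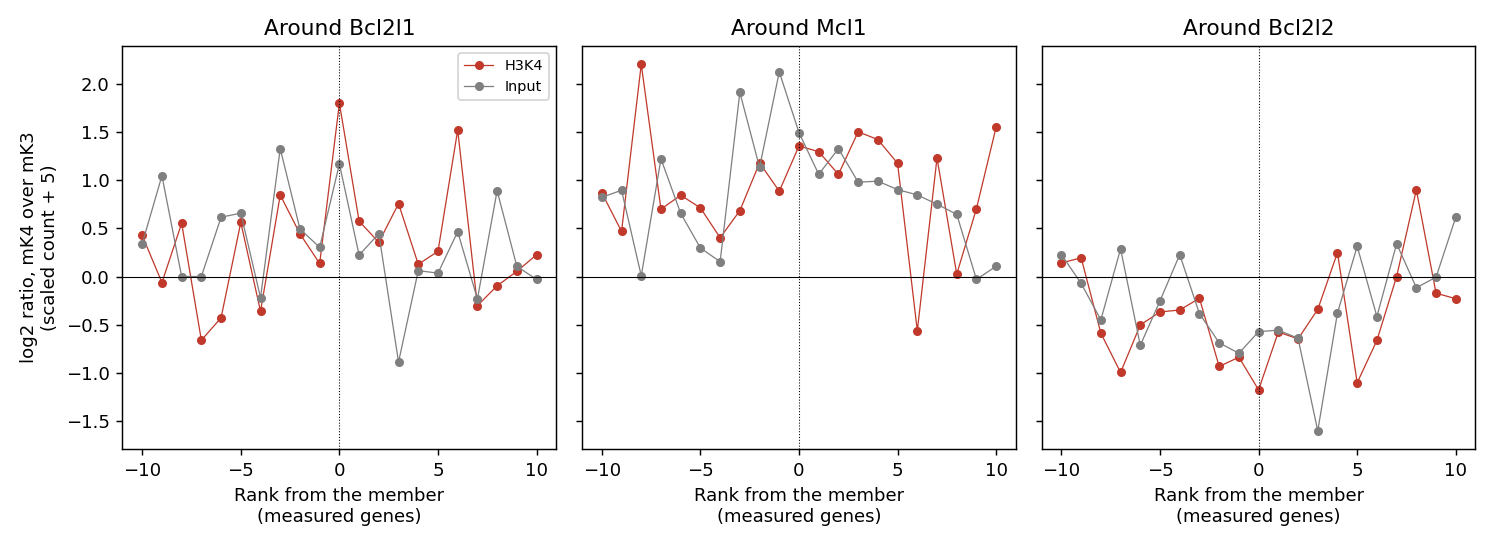
log2 ratio of mK4 over mK3 (scaled count plus 5) for H3K4 and input over the 10 measured genes on each side of Bcl2l1, Mcl1 and Bcl2l2, by rank from the member at 0. Bcl2l1 (1.80 in H3K4) lies above all of its neighbours on this scale, while Mcl1 (1.35) has 19 of 20 neighbours above 0 in H3K4 and Bcl2l2 (-1.17) has 4 of 20 above 0.

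By RPKM, which allows genes of different length to be compared, Mcl1 had the highest H3K4 level of the members in both lines, at 68.8 in mK3 and 180 in mK4. In mK3 it was followed by Bax (30.7), Bcl2l2 (29.1), Bcl2l1 (24.8) and Bcl2 (22.8), with the others between 16.3 and 20.4. In mK4 it was followed by Bcl2l1 (96.2), then by Bcl2 (30.3) and Bax (28.8), and Bcl2l2 (11.3) was lowest. Bcl2l1 thus stood below Bcl2l2 in mK3 and far above it in mK4. Input RPKM showed the same reversal, with Bcl2l1 at 10.8 and Bcl2l2 at 26.9 in mK3. In mK4 input they stood at 29.4 and 17.2. From Bax to Bcl2 the mK3 levels rest on 16 to 98 reads each, and no replicates are there to separate neighbours in this order. The median H3K4 RPKM over all gene rows was 13.4 and 13.0. All members but Bcl2l2 in mK4 lay above it. In the input, too, the members' median RPKM (21.2 in mK3 and 20.5 in mK4) lay above that of all gene rows (14.2 and 13.8).

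Genes whose values over the 6 libraries most resembled those of Bcl2l1 were Irf2bp1 (Pearson r of 0.993), Fgfr2 (0.991) and Dph5 (0.986), among 10227 genes with a mean scaled count of at least 20. This is a description over 6 libraries that differ in antibody, line and depth. Irf2bp1 had 33 and 83 H3K4 reads, Fgfr2 had 41 and 70 and Dph5 had 26 and 94, beside 35 and 163 at Bcl2l1. The 3 similar genes all lie on chromosomes with higher input in mK4 (7 and 3).

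Beyond the members, 51 other genes of the apoptosis pathway were looked at as a list. For H3K4, 4 of the 51 passed the 2-fold threshold upward in mK4 and 0 downward, with a median log2 ratio of -0.02, as for all genes. For H3K27, 3 were higher and 1, Aifm1, was lower (11 and 2 reads), with a median of -0.01 beside -0.06 for all genes. Among all genes the shares were 4.51% and 2.99% for H3K4 and 3.73% and 3.54% for H3K27, in the same order. Xiap, the caspase inhibitor on chromosome X, had 51 and 141 H3K4 reads (2.31-fold, 1.66 to 3.24), 33 and 85 H3K27 reads (3.17-fold, 2.10 to 4.90) and 33 and 96 input reads. Bcl2l15, a family member on chromosome 3, had 20 and 59, 19 and 46, and 7 and 47 reads in the same order. Casp6, an executioner caspase also on chromosome 3, had 11 and 39 H3K4 reads (2.96-fold, 1.48 to 6.40) and 5 and 20 input reads. As at Mcl1, the inputs of these 3 genes were higher in mK4 too.

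Bcl2l12, a family member on chromosome 7, had 9 and 30 H3K4 reads (2.78-fold, 1.29 to 6.65) beside 2 and 6 input reads. Bok, an effector relative on chromosome 1, had 5 and 18 H3K27 reads (4.44-fold, 1.59 to 15.3) beside 12 and 8 input reads. Of the list, Birc5 and Cflar were at least 2-fold over input for H3K4 in mK3, and Bcl2l12, Diablo, Fas, Tnfrsf1a, Trp53 and Ddit3 in mK4 (2 and 6 of 51, beside 4.94% and 3.69% of all genes). Several of these had very few input reads in mK4: 1 at Fas, 2 at Diablo, 3 at Ddit3 and 4 at Trp53. For H3K27, Bik and Trp73 passed in mK3 and Hrk in mK4 (2 and 1 of 51, beside 10.3% and 9.06%). The Bcl2a1 genes are near-identical copies between which reads cannot be placed with certainty, and Bcl2a1a, Bcl2a1b and Bcl2a1d had 0 to 3 reads in each library.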

How the data were processed

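The 6 deposited tables, 1 per library, list 22088 gene rows each. Per the file headers, they hold an exon length, whole read counts per gene and the authors' RPKM (reads divided by exon length and library total). The deposited RPKM equalled the count divided by exon length and by the file's summed reads, within a relative tolerance of 1e-04. The mK3 input held 4.74 to 5.18 reads per exon kilobase in 5 equal classes of genes from the shortest to the longest introns, as for reads counted in exons. The build is mm9, per the submitters' processing notes. No source used here names the aligner, the read length or any removal of duplicates.

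Counts were used as deposited, with totals from 311409 to 714011 reads per library. Where 1 of 137 symbols came in several rows, only its row with most ChIP reads on average entered, so that 21937 genes were analysed. Ratios of read shares carry exact Clopper-Pearson 95% intervals, and ratios set against input carry exact conditional intervals for an odds ratio. Both were checked on simulated counts. Log2 ratios used counts scaled to the mean library total of 513622 plus a pseudocount of 5, which understates differences at low counts, and 2-fold on that scale was the threshold. Neighbours (10 on each side) were ordered by a RefSeq table of GRCm38.p6, which matched 19325 symbols directly and 2302 by synonym. No test was run with 1 library per group. Nothing states that the lines' libraries came from separate cultures.

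All 10 members were named. Other apoptosis genes were named when at least 2-fold different in a mark with a mean scaled count of at least 10, or when they passed a threshold counted in the text, and Aifm1 and the genes over input were named after their values were seen. The 3 genes most like Bcl2l1 were taken by Pearson correlation. Members and lists were chosen with earlier results of these data known. Alternatives were other scaling, pseudocounts, filters, thresholds, summed rows and input subtraction.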

Additional observations from a re-analysis of the deposited data

Results flagged for a closer look

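The change of ChIP over input between the lines had a counting interval that left out 1 at 2 of the 10 members, each looked at for H3K4 and H3K27. The share of all genes with such an interval was not computed, so nothing is read from this count. These intervals compare single libraries, and the differences were not tested over samples. At Bcl2l11, H3K4 over input was 0.392 times as high in mK4 as in mK3 (0.176 to 0.848), and H3K27 over input 0.424 times as high (0.186 to 0.942). Both values share the same 14 and 40 input reads. With neighbour input subtracted in place of its own, the log2 ratios of Bcl2l11 were -0.0034 (H3K4) and 0.098 (H3K27). At Bak1, H3K27 over input was 0.229 times as high in mK4 (0.0457 to 0.998), from 21 and 4 ChIP reads beside 11 and 14 input reads.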

How the results depend on the processing

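Of 448 values of single members under the alternatives, 422 stayed within the counting interval of the value reported. The sign was kept in 408 and changed in 40. Summed rows and the filter could not change a member's value, since each member has 1 row and the filter only drops genes. The counts of 422 and 408 include those unchanged values, so they overstate how stable the members were. Among values past 2-fold as reported, 3 changed sign, all at Mcl1: to -0.14 (H3K4) and -0.35 (H3K27) on the log2 scale with its own input subtracted, and to -0.024 (H3K27) with 5 neighbours on each side subtracted. No cause was tested for changes below beyond how each alternative is built.

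With own input subtracted, the number of members with higher H3K4 was 0, and for H3K27 it was 0 higher and 2 lower (Bak1 and Bcl2l11). The summed survival ratio became 1.15 for H3K4 and turned to 0.822 for H3K27. With 10 or 5 neighbours subtracted, 1 member (Bcl2l1) was higher and 0 lower for H3K4, 0 were higher for H3K27, and the summed H3K4 ratio of the survival genes was 1.39 and 1.38. Without Bcl2l1 and Mcl1, chosen after seeing the data, the survival sums were 0.971 (H3K4), 0.930 (H3K27) and 1.08 (input). The death-promoting sums kept within their intervals under every alternative run.

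A pseudocount of 20 left 0 members lower for H3K4, 0 higher and 0 lower for H3K27, 1 higher in the input and 0 marked by H3K4 in mK3. A pseudocount of 1 gave 2 members higher for H3K27 and 2 marked by H3K4 in mK3 (Bcl2l1 and Mcl1), and a threshold of 1.5-fold gave 2 higher and 2 lower for H3K27. Median-of-ratios scaling gave 2 members marked by H3K4 in mK4 (Bcl2l1 and Mcl1). It moved the ratios between the lines by 0.04 (H3K4), 0.09 (H3K27) and 0.04 (input) on the log2 scale. With exon length as background, 3 members were marked by H3K4 (Bcl2, Bcl2l1 and Mcl1) and 1 by H3K27 (Mcl1) in mK4, where input at Mcl1 is high.

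In the wider list of 51, H3K4 counts higher in mK4 were 0 with a pseudocount of 20, 8 at 1.5-fold, and 1 and 2 with 10 and 5 neighbours subtracted. The genes left with neighbours subtracted were Aifm1 (10 neighbours), and Casp9 and Aifm1 (5 neighbours). Own input subtracted again gave 4, but these were Bcl2a1d, Vdac3, Trp53 and Ddit3. Under neither subtraction did Bcl2l12, Bcl2l15, Casp6 or Xiap remain. Counts lower were 2 at 1.5-fold and 2 with own input subtracted. For H3K27, 1 gene was higher with a pseudocount of 20 and with 10 or 5 neighbours subtracted, and 7 at 1.5-fold. The number lower for H3K27 was 5 with a pseudocount of 1, 8 at 1.5-fold, 2 with own input subtracted, and 0 with a pseudocount of 20, median-of-ratios scaling, the filter on a mean of at least 10, or neighbours subtracted. In the input, 1 gene was higher with a pseudocount of 20, and the number lower was 8 with a pseudocount of 1, 0 with 20, 1 with the filter and 12 at 1.5-fold. Depth limits these values, with 6 to 49 input reads per member in mK3 and 4 H3K27 reads at Bax in each line. No paired analysis was possible because each group has 1 library.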
